A study of Mus musculus with 2 samples.

Results

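The genes described here write, read or erase DNA methylation, form the Polycomb repressive complexes, oppose them as Trithorax methyltransferases, or remove acetyl groups from histones. They were taken from a list by function, with no threshold on their values, and number 41 of the 43346 genes in the tables, in 15 roles. All were measured in 2 total RNA-seq libraries of intestine from B6NCrl mouse embryos at embryonic day 14.5, which form 1 group with no second condition. No treatment, transgene or deletion is given for either library. The labels describe each library as a single intestine from 1 pup, give the same pup, dam and donor record for both, and place the collections 2 days apart, on day 17 of a month for replicate 1 and day 15 for replicate 2. They give the sex of both as pooled. A whole intestine mixes epithelium, mesenchyme, muscle, nerve, vessel and blood cells, so for every level below, fewer cells of a type and less RNA per cell cannot be told apart.

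In cells that copy their DNA, maintenance methylation restores the methyl mark on new strands, de novo enzymes set it on unmarked CpG sites (a cytosine followed by a guanine), and Tet dioxygenases oxidise it. Polycomb repressive complex 2 (PRC2) methylates histone H3 on lysine, Polycomb repressive complex 1 (PRC1) adds ubiquitin to histone H2A and compacts chromatin, and class I histone deacetylases act inside corepressor complexes. In the gut these systems are known for restraining genes of other lineages and for the balance between dividing progenitors and differentiated cells.

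Several of these genes are read from more than 1 start site, and for some of them the protein differs with the start. The sequences below are the 250 bases upstream of 6 starts annotated by RefSeq on GRCm38.p6, shown because the transcript values further on differ between these starts. They are written 5′ to 3′ on the strand of the gene, with each CpG in capitals. Dnmt1 lies on the minus strand. Its 1620-residue transcript Dnmt1-201 starts beside the first window (chr9:20952980-20953229, 7 CpG) and the 1501-residue Dnmt1-202 starts 6909 bases further upstream, beside the second (chr9:20959889-20960138, 2 CpG). Dnmt3a lies on the plus strand. The 908-residue Dnmt3a-201 starts within 60 bases of the end of the third window (chr12:3806730-3806979, 38 CpG) and the 689-residue Dnmt3a-203 and Dnmt3a-205 lie at the fourth (chr12:3891494-3891743, 15 CpG). Phc2 is also on the plus strand, with the 850-residue Phc2-201 at the fifth window (chr4:128654452-128654701, 13 CpG) and the 323-residue Phc2-202 at the sixth (chr4:128727321-128727570, 34 CpG).
Dnmt1-201: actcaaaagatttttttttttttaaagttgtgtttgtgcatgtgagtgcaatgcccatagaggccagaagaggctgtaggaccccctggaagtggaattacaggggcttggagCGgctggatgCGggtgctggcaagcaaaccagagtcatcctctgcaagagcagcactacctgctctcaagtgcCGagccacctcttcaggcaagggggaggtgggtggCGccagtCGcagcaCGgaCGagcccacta
Dnmt1-202: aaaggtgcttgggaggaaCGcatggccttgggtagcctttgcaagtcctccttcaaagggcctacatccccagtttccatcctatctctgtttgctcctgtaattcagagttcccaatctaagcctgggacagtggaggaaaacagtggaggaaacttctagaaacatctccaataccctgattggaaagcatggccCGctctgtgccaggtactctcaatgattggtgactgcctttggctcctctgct
Dnmt3a-201: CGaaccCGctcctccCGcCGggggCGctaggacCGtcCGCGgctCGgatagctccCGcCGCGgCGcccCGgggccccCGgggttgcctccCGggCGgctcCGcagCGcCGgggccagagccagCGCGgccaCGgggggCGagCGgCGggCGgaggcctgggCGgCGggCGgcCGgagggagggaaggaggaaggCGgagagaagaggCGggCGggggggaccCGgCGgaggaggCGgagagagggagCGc
Dnmt3a-203: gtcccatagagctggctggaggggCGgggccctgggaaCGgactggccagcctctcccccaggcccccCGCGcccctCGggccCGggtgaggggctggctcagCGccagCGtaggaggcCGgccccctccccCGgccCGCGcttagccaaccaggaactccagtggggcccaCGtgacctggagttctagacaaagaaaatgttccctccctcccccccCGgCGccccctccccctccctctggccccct
Phc2-201: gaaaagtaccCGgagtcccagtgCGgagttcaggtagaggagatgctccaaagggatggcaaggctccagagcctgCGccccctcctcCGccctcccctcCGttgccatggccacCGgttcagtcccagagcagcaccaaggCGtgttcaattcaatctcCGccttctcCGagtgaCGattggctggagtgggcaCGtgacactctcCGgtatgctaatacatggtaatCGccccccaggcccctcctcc
Phc2-202: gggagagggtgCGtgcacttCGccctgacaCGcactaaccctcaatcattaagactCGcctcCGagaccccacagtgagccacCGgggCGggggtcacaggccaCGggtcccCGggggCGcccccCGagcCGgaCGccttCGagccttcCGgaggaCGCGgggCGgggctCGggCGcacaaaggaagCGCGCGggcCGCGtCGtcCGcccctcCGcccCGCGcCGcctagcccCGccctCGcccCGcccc

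CpG is its own reverse complement, so the count is the same on both strands. Among the 32817 windows of the same length in the table, 46.3% held as many CpG as the Dnmt1-201 window and 81.2% as many as the Dnmt1-202 window. For Dnmt3a the shares were 1.88% for the long form and 27.3% for the short form, and for Phc2 they were 31.5% and 3.53%. Among the windows shown, Dnmt1-202 and the short form of Dnmt3a thus started beside fewer CpG than the longer proteins. The short form of Phc2 started beside more. Another Dnmt1 window, not shown (chr9:20952624-20952873), held 26 CpG close to the Dnmt1-201 window. It lies at the start of Dnmt1-203, which also has 1501 residues and held 2.59% and 2.75% of the gene. The CpG count thus did not follow protein length across all Dnmt1 starts. Windows were found for 36 of the 41 genes, 51 in all, with a median of 17 CpG against 6 over the whole table. The window of Tet2 had the most CpG among the genes listed, 51, and 0.067% of all windows held as many. Sequence in such a window describes the genome and was not measured in these libraries.

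At a level of TPM 1 or more in both libraries, 40 of the 41 genes were detected, against a background of 61.3% of 21474 protein-coding genes. TPM is transcript abundance corrected for length and scaled to a fixed total per library, so levels can be compared between genes. The only gene below was Dnmt3l. The median level of the 41 genes was 17.2 TPM in replicate 1 and 16.2 in replicate 2. Over the 13173 detected protein-coding genes it was 18.78 and 18.01, and 17 of the 41 exceeded that median in both libraries. The genes were thus nearly all expressed, at levels typical of an expressed gene. Values below are given as replicate 1 and replicate 2, or as mean ± SD (n = 2), and brackets hold the deposited 95% interval of the estimate, which covers the counting and assignment of reads and not variation between embryos. These intervals surround the posterior mean, a second deposited estimate of the level. Some TPM values therefore lay outside their interval, as for Hdac2 and Dnmt3a in replicate 1. A pair of genes is said to stand apart where one was higher in both libraries and the intervals overlapped in neither.

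**Figure D1:**
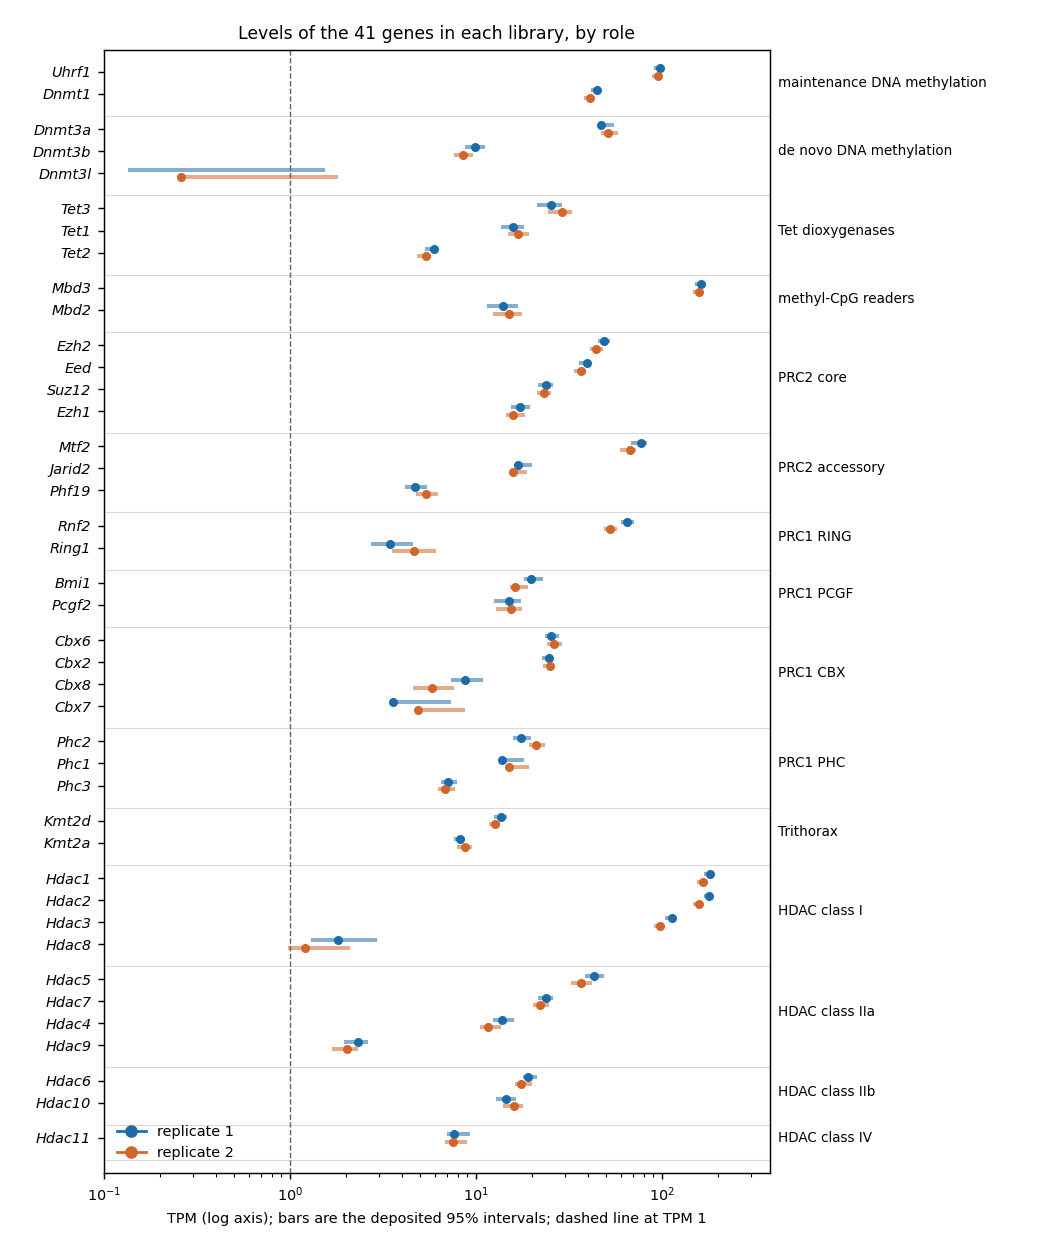
TPM of each of the 41 genes in replicate 1 (blue) and replicate 2 (orange) on a log axis, grouped by role, with bars for the deposited 95% intervals and a dashed line at TPM 1. Hdac1, Hdac2 and Mbd3 sit highest, between 159 and 181 TPM, and Dnmt3l lies left of the dashed line; its value of 0 in replicate 1 cannot be drawn on a log axis and shows by its interval alone.

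The maintenance pair was led by Uhrf1 (ENSMUSG00000001228.10, chromosome 17, 56303321 to 56323486), which encodes the protein that recognises half-methylated DNA and recruits Dnmt1. It stood at 97.3 and 95.5 TPM, from 7242 and 7150 estimated counts. Dnmt1 (ENSMUSG00000004099.11, chromosome 9, 20907209 to 20959888), the maintenance methyltransferase, stood at 44.7 TPM [42.4 to 44.8] and 41.2 [39.1 to 41.3]. Uhrf1 was above Dnmt1 in both libraries, 2.18-fold and 2.32-fold, with intervals that did not overlap in either. They lay at percentiles 92.9 and 83.6 of protein-coding genes. Proliferation markers were high in the same libraries, where the 15 genes had a median level of 170 and 161 TPM, and whether dividing cells account for the level of this pair was not tested.

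De novo methylation genes were carried by Dnmt3a (ENSMUSG00000020661.11, chromosome 12, 3806007 to 3914443). It stood at 47.3 and 51.2 TPM and held 84.0% ± 1.88 of the TPM of the 3 genes of this role. Dnmt3b (chromosome 2, 153649450 to 153687730), the other active de novo enzyme, stood at 9.93 and 8.55 TPM, so that Dnmt3a exceeded it 4.77-fold and 5.99-fold. Dnmt3l (chromosome 10, 78041947 to 78063622), a cofactor without catalytic activity that is best known from germ cells, had 0 counts in replicate 1 and 4 in replicate 2. A floor of 3 counts corresponds to 0.117 and 0.194 TPM for it, and the deposited intervals, which start from a prior, reached 1.51 and 1.76 TPM. Among 12 germ cell markers 3 were detected, Nanos3, Tdrd1 and Dnd1, none above 1.98 TPM, and Dppa3, Nanos2 and Stra8 had 0 counts in both libraries. Dnmt1 stood below the sum of Dnmt3a and Dnmt3b, at 0.780 and 0.689 of it. Counting complete protein-coding transcripts only, the mean ratio was 0.927. All 3 Dnmt1 models were complete coding ones, so this setting could lower Dnmt3a and Dnmt3b alone.

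All 3 Tet dioxygenase genes were detected in the order Tet3, Tet1, Tet2, with intervals apart in both libraries at each step. Tet3 (chromosome 6, 83362373 to 83459084) stood at 25.4 TPM and 29.2 TPM, Tet1 (chromosome 10, 62804570 to 62908996) at 15.8 and 16.9, and Tet2 (chromosome 3, 133463679 to 133545139) at 5.92 and 5.39. The order of Tet1 and Tet2 depended on which transcripts were counted. Complete coding models of Tet1 held 5.41 and 4.64 TPM, below Tet2, and the mean Tet2/Tet1 ratio, 0.347 ± 0.0399 over all transcripts, was then 1.13. Over all protein-coding transcripts it was 0.619. Tet2 had 1 model in the deposited values, a complete coding one, and Tet1 had 6, so these settings could lower Tet1 alone. The mean Tet3/Tet1 ratio was 1.67 ± 0.0823 over all transcripts, 2.65 over protein-coding ones and 3.39 over complete coding ones. The rest of Tet1 was Tet1-202, a processed transcript without a coding frame, at 41.9% and 46.2% of the gene, and incomplete coding models.

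Mbd3 and Mbd2, alternative subunits of the NuRD corepressor, stood far apart. Mbd3 (chromosome 10, 80392539 to 80399550), which binds methylated CpG weakly or not at all, stood at 163 and 159 TPM, the third highest of the 41 genes. Mbd2, which binds it strongly, stood at 14.0 [11.8 to 16.3] and 15.0 [12.6 to 17.3]. The ratio was 11.6 and 10.6. Its mean was 11.1 ± 0.733 over all transcripts, 18.5 over all protein-coding ones and 11.4 over complete coding ones. The 19 measured partners of the DNA methylation machinery all passed TPM 1, with a median level of 20.02 ± 0.438, and 0 of them differed between the libraries by the rule given further on. The background for that rule was 0.495% of all genes at a mean TPM of at least 5, so this count is near it. The highest were Pcna, the sliding clamp that carries Dnmt1 at the fork, at 233 and 233 TPM, the DNA glycosylase gene Tdg at 127 and 118, and the Uhrf1 relative Uhrf2 at 57.0 and 54.5. Mbd4, a glycosylase for mismatches at CpG sites, differed most, at 12.2 and 9.61 TPM.

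Over all transcripts, the PRC2 core genes followed one order in both libraries, Ezh2, Eed, Suz12 and Ezh1, with intervals apart at each step. Ezh2 (ENSMUSG00000029687.12, chromosome 6, 47530139 to 47595341), the methyltransferase subunit of dividing cells, stood at 49.2 and 44.5 TPM. Eed (chromosome 7, 89954654 to 89980983), which binds the mark, stood at 39.5 and 37.0. In complete coding models this pair lay close, with Ezh2 at 39.22 and 36.59 TPM and Eed at 38.25 and 35.91. Suz12 (chromosome 11, 79993106 to 80034123), the scaffold, stood at 23.7 and 23.1. Ezh1 (chromosome 11, 101191115 to 101226463), the alternative methyltransferase known from cells that have stopped dividing, stood at 17.2 and 15.9. Ezh2 exceeded Ezh1 2.86-fold and 2.80-fold, a mean ratio of 2.83 ± 0.0417. Ezh1 held 13.2% ± 0.0608 of the TPM of the core genes and Ezh2 37.4% ± 0.723.

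Among PRC2 accessory genes, Mtf2 (chromosome 5, 108065674 to 108109004), a Polycomb-like protein that brings PRC2 to CpG islands, stood far above the others at 77.3 TPM [69.6 to 81.1] and 67.5 [60.8 to 70.9]. Jarid2 (chromosome 13, 44729474 to 44921643), which also recruits PRC2, stood at 16.9 and 15.8, and the Polycomb-like gene Phf19 (chromosome 2, 34893757 to 34914026) at 4.71 and 5.42. Mtf2 exceeded Jarid2 4.56-fold and 4.27-fold. In complete coding models the pair lay close, with 16.7 and 15.1 TPM for Mtf2, all of it in the 593-residue Mtf2-201, and 14.9 and 13.6 TPM for Jarid2. The highest Mtf2 transcript was an incomplete model of 239 residues, Mtf2-208, at 29.3 and 27.6 TPM. Of 10 PRC2 partners 9 were detected. The histone chaperones Rbbp7 and Rbbp4, shared with deacetylase complexes, stood at 502 and 516 TPM and at 275 and 258. Kdm6b, a demethylase that removes the PRC2 mark, stood at 23.3 and 22.8. The partner that was not detected in both, and the only one that differed, was the Y-linked Kdm6a relative Uty, at 0.02 and 15.9 TPM.

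The E3 ligase pair at the heart of PRC1 was uneven. Rnf2 (ENSMUSG00000026484.9, chromosome 1, 151458004 to 151500955), the more active ligase, stood at 65.0 TPM [61.7 to 69.2] and 52.5 [50.3 to 56.0]. Its paralog Ring1 (chromosome 17, 34020792 to 34024680) stood at 3.45 [2.79 to 4.499] and 4.62 [3.62 to 5.93], from 141 and 167 counts. Rnf2 held 93.4% ± 2.16 of the pair, and the ratio was 18.8 and 11.4. PCGF subunits define the kind of PRC1. Of the listed pair, Bmi1 (chromosome 2, 18677018 to 18686629) stood at 19.7 and 16.2 TPM and Pcgf2 (chromosome 11, 97688823 to 97700497) at 15.0 and 15.4, with intervals apart in replicate 1 and overlapping in replicate 2. The Pcgf2/Bmi1 ratio was 0.854 ± 0.130 over all transcripts and 0.657 over protein-coding ones. Pcgf1 of the partner list, named here after its values were seen, was higher than both at 34.4 and 32.4.

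Of the chromobox genes, whose proteins bring PRC1 to the PRC2 mark, Cbx6 and Cbx2 were highest, with intervals that overlapped in both libraries. Cbx6 (chromosome 15, 79823896 to 79834688) stood at 25.5 and 26.3 TPM and Cbx2 (chromosome 11, 119022962 to 119031270) at 24.8 and 25.03. Cbx6 held 41.5% ± 1.23 and Cbx2 40.0% ± 0.545 of the TPM of the 4 listed genes. With protein-coding transcripts only, Cbx2 was the higher, at a mean Cbx6/Cbx2 ratio of 0.963. Cbx8 (chromosome 11, 119036305 to 119040969) stood at 8.75 and 5.78, and Cbx7 (chromosome 15, 79915807 to 79971119), known from adult stem cells, at 3.60 [3.75 to 7.17] and 4.89 [5.00 to 8.53]. The Cbx7 estimate lay below its own interval in both libraries, and that interval overlapped the one of Cbx8 in replicate 2. In complete coding models the order turned, with Cbx8 at 3.17 and 2.70 TPM and Cbx7 at 3.23 and 4.57. Among the polyhomeotic genes, whose proteins chain PRC1 together, Phc2 (chromosome 4, 128654702 to 128752881) stood at 17.5 and 21.1 TPM. Phc1 (chromosome 6, 122317731 to 122340561) stood at 13.8 and 15.2 and Phc3 (chromosome 3, 30899371 to 30969415) at 7.07 and 6.84. The intervals of Phc2 and Phc1 overlapped in replicate 1 only, and both genes stood above Phc3. In complete coding models Phc2 held 11.36 and 16.19 TPM and Phc1 12.55 and 13.34, so their order turned in replicate 1.

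The 21 PRC1 partners all passed TPM 1, with a median level of 17.3 ± 1.07, and 0 differed by the rule, near the background of 0.495%. The highest were the kinase subunit gene Csnk2a1 at 67.4 and 86.0 TPM, which also differed most, the H2A deubiquitinase gene Bap1 at 66.8 and 61.7, and Yaf2, a subunit of variant PRC1, at 55.9 and 58.8. The Trithorax methyltransferase genes, which set activating methylation on histone H3, were low among the 41. Kmt2d (chromosome 15, 98831669 to 98871204), an enhancer enzyme, stood at 13.7 and 12.6 TPM and Kmt2a (chromosome 9, 44803355 to 44881296) at 8.22 and 8.79, apart in both libraries. Their long transcripts still gave 5967 and 5780 counts for Kmt2d, and their floors were the lowest of the list, 0.00687 TPM for Kmt2d in replicate 1. The 15 other Trithorax and COMPASS genes all passed TPM 1, with a median level of 25.5 ± 1.43 and 0 that differed, led by the shared subunit genes Dpy30 at 152 and 155 TPM and Ash2l at 86.5 and 77.5, with the chromatin reader Psip1 at 103 and 95.8. Hcfc1, a scaffold of these complexes, differed most among them, at 52.0 and 58.2.

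Histone deacetylase transcripts were mostly those of class I. Hdac1 (ENSMUSG00000028800.11, chromosome 4, 129516104 to 129542713) stood at 181 TPM [173 to 182] and 166 [159 to 167]. Hdac2 (ENSMUSG00000019777.12, chromosome 10, 36974544 to 37001889) stood at 180 [172 to 180] and 159 [151 to 159]. The intervals of these paralogs, which share their complexes, overlapped in replicate 1 and not in replicate 2, at a Hdac2/Hdac1 ratio of 0.993 and 0.954. The order turned with protein-coding transcripts only, to a mean of 1.03. Hdac3 (chromosome 18, 37935844 to 37955016), the enzyme of the NCoR complexes, stood at 113 and 98.04 TPM, apart from both. Hdac8 (chromosome X, 102284639 to 102505359), which acts on cohesin, stood at 1.82 [1.32 to 2.88] and 1.20 [0.997 to 2.06], from 53 and 46 counts. Class I held 79.3% and 78.8% of the TPM of all 11 deacetylase genes.

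Class IIa genes, whose proteins shuttle between nucleus and cytoplasm and bind Mef2 factors, followed the order Hdac5, Hdac7, Hdac4 and Hdac9, apart at each step in both libraries. Hdac5 (chromosome 11, 102194432 to 102230166) stood at 43.2 and 36.9 TPM, Hdac7 (chromosome 15, 97792664 to 97844502) at 23.7 and 22.2, Hdac4 (chromosome 1, 91928779 to 92195699) at 13.8 and 11.6 and Hdac9 (chromosome 12, 34047580 to 34917095) at 2.33 and 2.03. In complete coding models the order held at closer levels. Hdac5 then held 15.23 and 15.41 TPM, Hdac7 11.43 and 11.47 and Hdac4 9.2 and 8.74. The tables hold a single Hdac9 model of 588 residues, while the longest in the later annotation has 1067. Short Hdac9 proteins are known to lack the deacetylase domain, so this level describes that model, and the longer ones were not analysed here. In class IIb, the tubulin deacetylase gene Hdac6 (chromosome X, 7930120 to 7947889) stood at 19.1 and 17.6 TPM and the polyamine deacetylase gene Hdac10 (chromosome 15, 89123307 to 89128700) at 14.6 and 16.1, with intervals that overlapped in replicate 2 only. In complete coding models they lay further apart, with Hdac6 at 18.1 and 16.1 TPM and Hdac10 at 5.11 and 5.00. Hdac11 (chromosome 6, 91156665 to 91174692), the only class IV gene, stood at 7.66 and 7.54. Of 33 genes of deacetylase complexes and sirtuins 32 passed TPM 1, with a median level of 25.9 ± 1.11. By the rule 0 differed, near the background of 0.495%. The scaffold gene Sin3b stood at 135 and 145 TPM, the corepressor gene Ncor1 at 109 and 124 and its partner Tbl1x at 69.3 and 64.6. Chd5, a remodeller known from neurons and testis, was below 1 in replicate 1, at 0.85 against 1.30 TPM, and Sap30l differed most, at 7.94 and 11.7.

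Ordered by level over the whole list, the genes fell into a few steps. Of the 40 pairs of neighbours in that order, 8 stood apart. Hdac1, Hdac2 and Mbd3 formed the top step at 161 to 174 TPM on average, followed by Hdac3 and Uhrf1, then Mtf2, then Rnf2, Dnmt3a and Ezh2. These steps count all transcripts. In complete coding models Mbd3 held 98.15 and 99.28 TPM, near Hdac3 at 103.18 and 90.24 and Uhrf1 at 92.28 and 89.99. Mtf2 then held 16.68 and 15.13 TPM, below Suz12 at 19.07 and 19.25. Dnmt1, below Ezh2 and Dnmt3a over all transcripts, then held 44.67 and 41.18 TPM. That was above Ezh2 at 39.22 and 36.59 and Dnmt3a at 37.59 and 39.05. From Tet3 at 27.3 ± 2.68 down to Hdac4 at 12.7 ± 1.54, 17 genes followed each other without a neighbour that stood apart. Hdac9, Hdac8 and Dnmt3l were lowest, at 2.18 ± 0.212, 1.51 ± 0.438 and 0.13 ± 0.184.

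**Figure D2:**
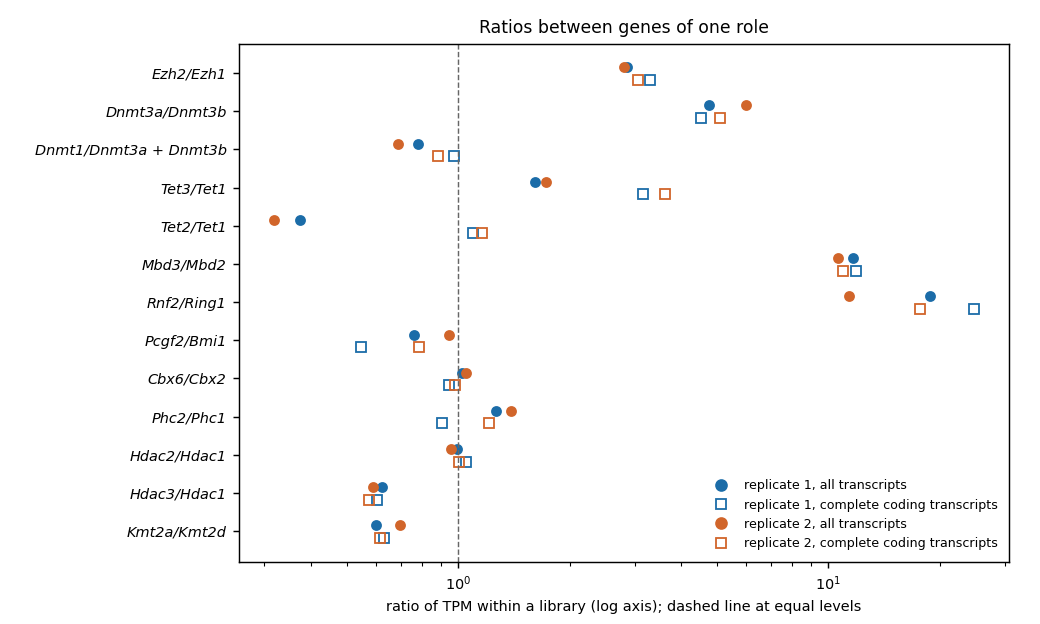
Ratios of TPM between genes of one role in replicate 1 (blue) and replicate 2 (orange) on a log axis, from all transcripts (filled circles) and from complete protein-coding transcripts only (open squares). Mbd3/Mbd2 and Rnf2/Ring1 exceed 10 in both libraries, and Tet2/Tet1 crosses the dashed line of equal levels when only complete coding transcripts are counted.

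Part of the RNA assigned to these genes was not in complete coding models. Of the 40 detected genes 38 had several transcripts in the tables, with a median of 7 per gene over the 40 against 4 for detected protein-coding genes. Among the 38, complete coding models held a median of 81.4% ± 1.87 of the gene, against 88.01% ± 0.286 over 9605 detected protein-coding genes with several transcripts. Transcripts not annotated as coding, which are retained introns, processed transcripts and targets of nonsense-mediated decay, held a median of 12.5% ± 1.58 against 6.68% ± 0.254. They reached 25% in both libraries in 8 of the 38 genes, near the background of 22.2%. The highest transcript held at least 50% of its gene in both libraries in 25 of the 38, against a background of 73.8%.

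**Figure D3:**
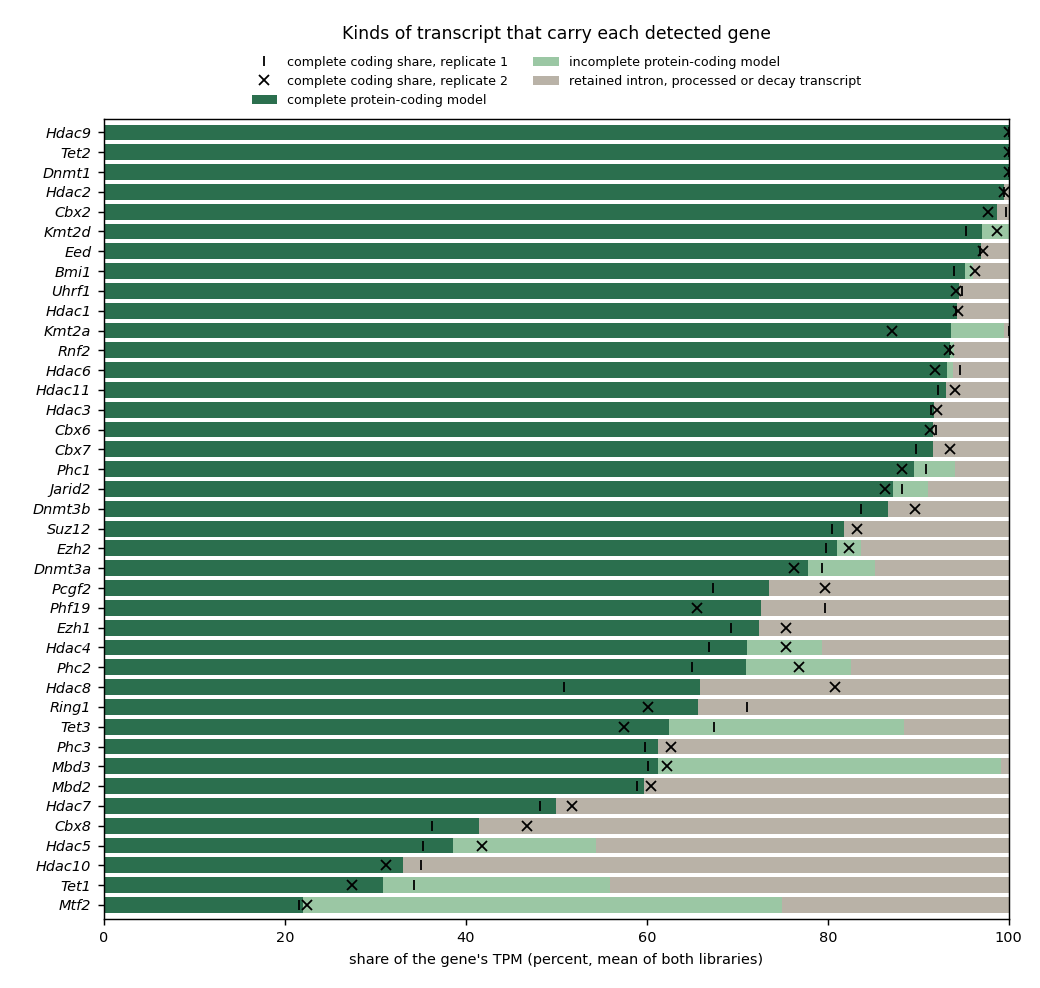
Share of each detected gene's TPM in complete protein-coding models (dark green), incomplete ones (light green) and transcripts not annotated as coding (grey), as the mean of both libraries, with a bar and a cross for the complete coding share in replicates 1 and 2. Mtf2, Tet1, Hdac10, Hdac5 and Cbx8 have less than 50% in complete coding models in both libraries, and Hdac9, Tet2, Dnmt1 and Hdac2 lie at or near 100.

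A single coding transcript carried Hdac2 (98.6% and 98.8% of the gene in Hdac2-201), Cbx2 (99.7% and 97.7%), Eed (96.8% and 97.2%), Hdac1 (94.1% and 94.4%), Rnf2 (92.9% and 91.3%), Hdac11 (92.2% and 94.1%) and Hdac3 (91.45% and 92.04%). Bmi1-201 held 85.5% and 91.2% of its gene, Jarid2-208 85.0% and 85.9%, Kmt2d-201 84.3% and 80.9% and Hdac6-202 83.6% and 78.8%. Highest transcripts with a middle share were Phf19-201 (79.7% and 65.6%), Ring1-201 (71.2% and 60.1%), Hdac4-202 (66.8% and 75.3%), Ezh2-201 (62.8% and 69.4%), Mbd2-201 (58.4% and 59.3%) and Phc3-209 (53.4% and 50.6%). Ezh1-203 held 62.5% and 70.5%, but its intervals ran from 2.23 to 10.8 and from 2.27 to 10.4 TPM, so that share is uncertain.

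Elsewhere the RNA was spread over several models. Mbd3 was split between the complete 253-residue Mbd3-204 (45.4% and 46.5%) and Mbd3-206 (38.0% and 37.7%), an incomplete model. Cbx6 was split between 2 complete proteins of 396 and 414 residues, Cbx6-202 (45.2% and 50.8%) and Cbx6-203 (46.7% and 40.5%). For Cbx7 the 158-residue Cbx7-203 (56.4% and 65.5%) exceeded the 251-residue Cbx7-201 (33.3% and 28.0%), while the intervals of the pair overlapped in replicate 1. Phc1 held Phc1-202 (53.6% and 42.7%) and Phc1-215 (31.2% and 28.1%). The retained intron transcript Hdac7-211 was the highest of its gene at 49.7% and 46.0%. For Cbx8 the processed transcript Cbx8-202 held 63.7% and 46.5% and the complete Cbx8-201 36.3% and 46.7%. Hdac10-201, the only complete model of Hdac10 above 10% in both libraries, held 33.0% and 29.8%, and 4 transcripts without a coding frame held 10% or more each. In Hdac5 no transcript reached 25% in either library. The 2 highest complete models, Hdac5-202 and Hdac5-204, held 21.4% and 16.2%, and 12.1% and 23.95%. Hdac8-201 held 50.8% and 80.8% of a gene with few counts. Pcgf2 was led by Pcgf2-206 in replicate 1 (29.9%) and by Pcgf2-203 in replicate 2 (31.1%), and Dnmt3b by the 776-residue Dnmt3b-206 in both (29.8% and 52.8%).

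The remaining transcripts that held 10% or more of their gene in both libraries were of several kinds. The highest retained intron was Mbd2-204, at 33.8% and 37.7%, followed by Phc3-207 at 23.3% and 22.4%. Hdac4-210 held 20.4% and 12.6%, Hdac5-211 18.1% and 13.6%, Ring1-202 15.0% and 27.7%, Ring1-203 13.9% and 12.2%, Suz12-203 12.8% and 15.4% and Phf19-204 11.4% and 22.3%. These models are read through an intron and give no annotated protein, so the gene levels of Mbd2, Phc3 and Ring1 include reads assigned to such models. In total RNA such reads can also come from RNA not yet spliced, which was not told apart for any retained intron model. The processed transcripts Pcgf2-204 (17.7% and 12.0%) and Tet3-201 (10.9% and 12.3%) and the decay target Phc2-209 (17.4% and 12.1%) give no full protein either. Incomplete coding models in this range were Tet3-204 (21.7% and 30.2%), Hdac5-214 (16.5% and 14.7%) and Tet1-205 (10.4% and 22.2%). Complete ones were Dnmt3b-209 (18.4% and 13.1%), Hdac7-201 (14.9% and 13.8%), Hdac7-208 (13.1% and 12.6%), Dnmt3b-207 (12.0% and 15.2%), Hdac6-201 (10.95% and 13%) and Kmt2d-202 (10.9% and 17.9%). Hdac6-201 and Hdac6-202 annotate the same protein length of 1149 residues, as Kmt2d-201 and Kmt2d-202 do with 5588.

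Transcripts from different starts came with different shares. For Dnmt1, the 1620-residue Dnmt1-201 held 31.4 TPM [27.8 to 33.6] and 28.5 [25.2 to 30.4], or 70.4% and 69.2% of the gene. Dnmt1-202, from the upstream start with 2 CpG in its window, held 12.1 [8.74 to 14.6] and 11.6 [8.73 to 13.9], or 27.0% and 28.1%. It differs from the other Dnmt1 models in 156 bases of its own. A Dnmt1 protein shortened at its start is known from oocytes, where it is made from an upstream first exon. Whether Dnmt1-202 is that form was not tested, and the 12 germ cell markers in these libraries gave 3 detected genes, none above 1.98 TPM.

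For Dnmt3a, the long Dnmt3a-201 held 28.0 and 29.0 TPM, or 59.1% and 56.7% of the gene. The short protein of 689 residues, known as Dnmt3a2 from embryonic stem cells and germ cells, was split between Dnmt3a-203 at 9.63 and 5.84 TPM and Dnmt3a-205 at 0 and 4.18. The intervals of Dnmt3a-203 alone lay apart, [7.94 to 10.4] and [4.52 to 7.04], and the share of all transcripts that did so was not computed. These models give the same protein from starts 16 bases apart, and only those 16 bases belong to 1 of them alone. Their sum was 9.63 and 10.0 TPM, or 20.3% and 19.6% of the gene, so the level of the short form was close in both libraries. Its start lies 84714 bases downstream of that of Dnmt3a-201. The retained intron transcript Dnmt3a-202 held 16.0% and 12.3%.

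For Phc2, the 323-residue Phc2-202 from the CpG-rich downstream start was the highest transcript, at 9.12 TPM [6.60 to 10.5] and 13.8 [11.3 to 15.4], or 52.2% and 65.6%. The 850-residue Phc2-201 from the start 72883 bases upstream held 0.69 and 2.37 TPM. A second 850-residue model, Phc2-203, held 1.55 and 0. The long protein thus had the smaller share in both libraries. For Uhrf1, Uhrf1-204 held 50.9% and 53.5%, and its start lies 1027 bases downstream of that of Uhrf1-201 (13.8% and 17.8%), which makes the same 782-residue protein. Uhrf1-203, with 774 residues, held 25.6% and 20.2%. For Tet3, the 1668-residue Tet3-202 held 12.5 [11.7 to 12.7] and 11.7 [10.97 to 11.9] TPM. The 1803-residue Tet3-203, from a start 14717 bases upstream, held 4.66 [4.03 to 5.07] and 5.07 [4.43 to 5.49], apart from it in both libraries.

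**Figure D4:**
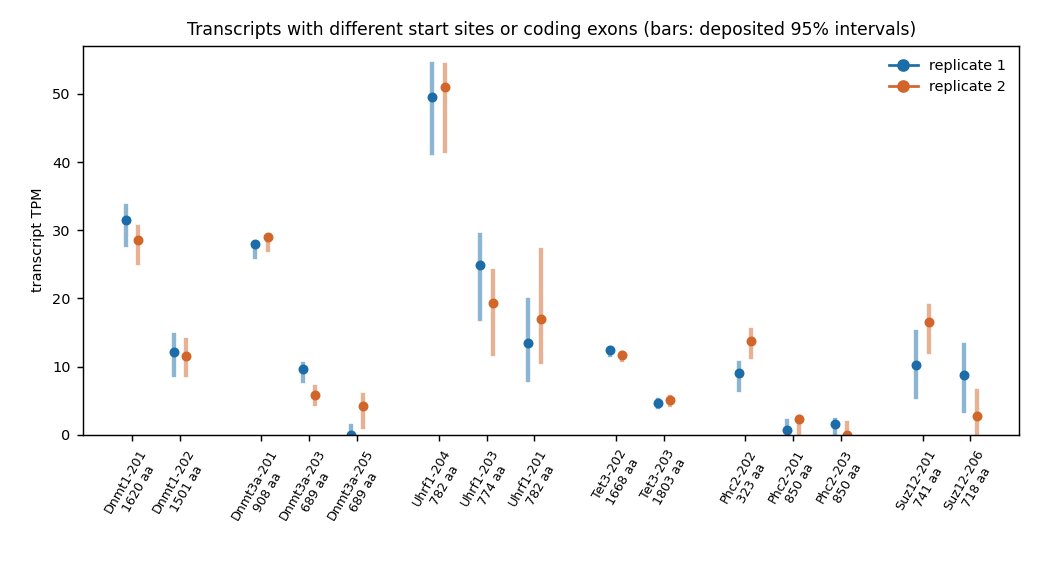
TPM of selected transcripts of Dnmt1, Dnmt3a, Uhrf1, Tet3, Phc2 and Suz12 in replicate 1 (blue) and replicate 2 (orange), with bars for the deposited 95% intervals and the length of the annotated protein in residues (aa). Dnmt1-202 keeps near 12 TPM in both libraries, while intervals lie apart between libraries for Dnmt3a-203 and Phc2-202 and overlap for the Suz12 pair. The share of all transcripts with intervals apart was not computed, so no transcript is read here as differing above a background.

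Suz12 differed in a single coding exon. Suz12-201 (741 residues) contains exon 4 of its 16 exons, 69 bases that encode 23 residues in frame, and Suz12-206 (718 residues) lacks it. The exon is shown in capitals with 15 bases of coding sequence on each side, from the GENCODE M21 transcript of Suz12-201 (GRCm38, chr11:79999057-79999125, plus strand), since it is the sequence that separates the models.
Suz12 exon 4: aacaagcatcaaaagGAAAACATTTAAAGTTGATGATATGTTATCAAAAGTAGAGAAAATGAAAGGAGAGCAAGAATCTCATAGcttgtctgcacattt

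Suz12-201 held 43.4% and 71.4% of the gene and Suz12-206 37.0% and 11.7%. The transcript intervals were wide and overlapped, at 5.58 to 15.1 and 12.2 to 18.9 TPM for Suz12-201 and at 3.46 to 13.1 and 0.0421 to 6.34 for Suz12-206. The gene itself was at 23.7 and 23.1 TPM, with intervals that overlapped. For Kmt2a the shares also differed, with Kmt2a-201 (3963 residues) at 62.9% and 87.1% and Kmt2a-202 (3966 residues) at 37.2% and 0.05%. In all, 5 of 285 member transcripts differed by 20 points or more of their gene's share, Suz12-201, Suz12-206, Kmt2a-201, Kmt2a-202 and Dnmt3b-206, against a background of 0.925% over transcripts of protein-coding genes. None of the 285 had transcript intervals apart as well, where the background was 0.151%.

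Between the embryos these genes differed about as much as all genes at their level. A gene was said to differ at a mean TPM of at least 5, a difference of at least 1 in log2(TPM + 1) and deposited intervals that did not overlap. Of the 36 genes of the list at that level 0 differed, against a background of 0.495%, or 56 of 11324 genes. With 2 libraries and 1 group no test between conditions was possible, and no unadjusted p-value exists. The largest difference was that of Cbx8, at -0.52 in log2(TPM + 1) from replicate 1 to replicate 2, with intervals of 7.51 to 10.7 and 4.71 to 7.43 TPM. It was the single gene of the 36 past a difference of 0.5, where the background was 1.61%, and it missed that size, with intervals that overlapped, after scaling by TMM (-0.48) or DESeq2 size factors (-0.48). The largest in the other direction was that of Phc2, at 0.26. Of the genes below a mean TPM of 5, Dnmt3l, Ring1 and Cbx7 were higher in replicate 2, by 0.33, 0.34 and 0.36, and Hdac8 and Hdac9 lower, at -0.36 and -0.14, all with intervals that overlapped. The spread per library, a robust SD of the differences divided by the square root of the number of libraries, was 0.108 for the 36 genes and 0.106 for all genes at that level.

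With no limit on size, intervals lay apart with the higher value in replicate 1 for 7 of the 36 genes (Dnmt1, Rnf2, Bmi1, Cbx8, Hdac1, Hdac2 and Hdac3), or 19.4%, against a background of 17.9%. They lay apart with the higher value in replicate 2 for Phc2 alone, or 2.78% against 7.23%. The direction of such small differences depended on scaling. All genes had a median difference of -0.05 and the 36 genes one of -0.09. After TMM scaling the counts were 4 and 1, with backgrounds of 10.4% and 12.2%, after DESeq2 scaling 3 and 1, with backgrounds of 10.3% and 12.4%, and after spike-in scaling 18 and 0, with backgrounds of 39.0% and 2.78%. Rnf2, Hdac2 and Hdac3 kept intervals apart under all 5 scalings, deposited TPM and nuclear protein-coding genes included. The share of all genes that did so was not computed, so this count is not read as above the background. Their differences on the deposited scale were -0.30, -0.18 and -0.20 in log2(TPM + 1). Phc2 kept its higher value in replicate 2 under each scaling, with intervals apart in all but the spike-in scaling.

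**Figure D5:**
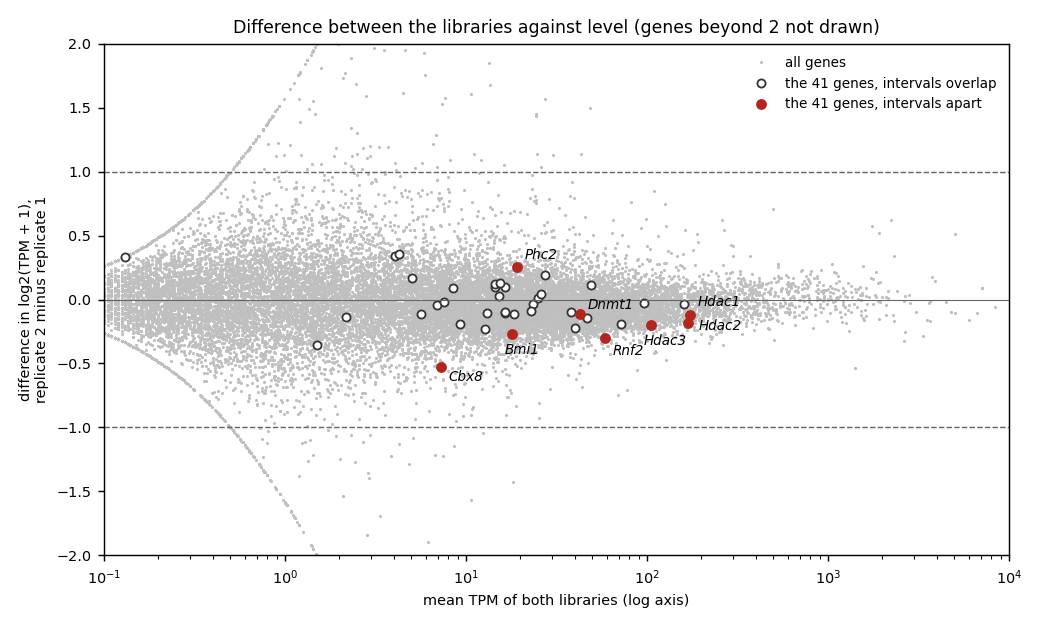
Difference in log2(TPM + 1) between the libraries, replicate 2 minus replicate 1, against mean TPM on a log axis, for all genes (grey) and the 41 genes (circles, red where deposited intervals lay apart), with dashed lines at a difference of 1. All 41 lie between the dashed lines, with Cbx8 lowest at -0.52.

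The libraries also differed in sex-linked transcripts and in markers of cell types. Sex-linked transcripts were split, with Xist at 77.2 and 0.06 TPM and the Y-linked genes Ddx3y, Eif2s3y and Kdm5d at 0 in replicate 1 and 28.2, 46.5 and 17.97 in replicate 2, against labels that give a pooled sex for both. On the X chromosome, Hdac6 and Hdac8 were at 19.1 and 17.6 and at 1.82 and 1.20 TPM, with intervals that overlapped. Their neighbour in function Kdm6a, the X-linked demethylase of the PRC2 mark, was at 19.0 and 12.6 TPM with intervals apart. Intervals lay apart in that direction for 17.9% of all genes at a mean TPM of at least 5. Kdm6a was named outside the naming rule given below. Together with its Y-linked relative Uty, Kdm6a came to 19.0 and 28.5. Summed levels of 15 proliferation markers were 2575 and 2424 TPM, of 7 epithelial markers 1514 and 1654, of 8 mesenchyme and smooth muscle markers 5673 and 5320 and of 8 enteric neuron and crest markers 425 and 381. The 5 endothelial markers summed to 198 and 196, the 5 macrophage markers to 123 and 125 and the 5 erythroid markers to 5922 and 8651. The 9 pancreas markers summed to 4.51 and 1019. The part of these shifts in the differences of Rnf2, Phc2, Cbx8 and the class I deacetylases was not tested. Embryo, sex and collection date cannot be told apart.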

How the data were processed

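Per the labels, total RNA longer than 200 nucleotides, 10 ng per library, was extracted with the Ambion mirVana kit from both intestines. Per the file headers and accompanying notes, the assembly was mm10 and the annotation GENCODE M4, while quantifier and strand setting were not stated. For each gene and transcript the authors deposited expected counts, TPM and FPKM, with the percent share of each isoform and, taken here as scores, posterior means and the bounds of TPM intervals. Gene tables held 34504419 and 34042802 estimated counts, 4.54% and 4.91% of them in spike-ins, which also took 9.77% and 10.4% of TPM and were left out of genes, as were numeric identifiers. The counts of 17781 genes differed by more than sampling noise, with chi-square at 15.3 times its degrees of freedom, and each library counts as 1 sample. The labels number the pair as biological replicates.

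GENCODE M21 (GRCm38) supplied symbols, transcript models and coordinates. It matched 42462 of 43346 genes and gave the same length for 299 of 312 transcripts of the listed genes. Of the other genes in the pathway lists, 1 was not matched. Genes stood apart where their order held and their deposited intervals did not overlap in both libraries. The members, lists and rules were chosen with earlier results of these data known. Named genes were all members and, of each pathway list, the 3 highest, any under TPM 1 where at most 4, and the one that differed most. Pcgf1 and Kdm6a were named outside this rule. Transcripts were the highest of each member and those with 10% in both libraries. Floors are 3 counts per library. Scalings used edgeR 4.0.16 and DESeq2 1.42.0 on rounded expected counts (log2 shift of replicate 2 of 0.05 for both) and spike-ins (-0.10). Tables were computed in Python 3.11.15 with pandas 2.3.3. Intervals and floors leave out variation between embryos, and reads without molecular identifiers can be copies of 1 molecule.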

Additional observations from a re-analysis of the deposited data

How the results depend on the processing

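The detection count kept within 1.5 times of 40 under each alternative, with 35 genes at TPM 5 and 29 at TPM 10, where 48.8% and 39.8% of protein-coding genes passed. The median level moved from 16.7 to 17.4 TPM by posterior mean and to 21.9 when TPM was rescaled over nuclear protein-coding genes, and lay between 16.2 and 17.2 without either replicate. Of 14 ratios, all kept their side of 1 by posterior mean, counts per length and FPKM, 12 with protein-coding transcripts only and 11 with complete protein-coding transcripts only. FPKM is proportional to TPM within a library, so no ratio could turn by FPKM. The ratio of class I to all deacetylases is a part over its whole and could not turn under any setting, though it is counted in each number. Those that turned, judged by the mean of the libraries, were Cbx6/Cbx2 (0.963 in both) and Hdac2/Hdac1 (1.03 in both), and, with complete transcripts only, Tet2/Tet1 (1.13). Phc2/Phc1 turned in replicate 1 alone with complete transcripts only, at 0.905 against 1.21 in replicate 2. These settings remove non-coding and incomplete models by construction, and Tet2, with a single complete model, had none to lose. Genes whose highest transcript held 50% or more numbered 25, or 20 by posterior mean, and 27 to 28 with either replicate alone. Members that differed numbered 1 at a difference of 0.5, 8 with intervals apart at any size and 0 under the other alternatives; all genes that differed numbered 182 and 2851 under these settings and 116 without a filter on low values. Transcripts that differed in share numbered 5 without intervals. Complete coding transcripts, intervals at any size and transcript shares were added after seeing the data. No paired analysis was possible because there is 1 group. Levels of Dnmt3l, Hdac8 and Ring1 rest on fewer than 200 counts per library, and shares of models that have no bases of their own rest on how shared reads were divided in the deposited estimates.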
